A study of Mus musculus with 24 samples.

Results

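The 33 genes described here make, move and clear cholesterol in mouse prefrontal cortex, or control its synthesis. They were taken by gene symbol from a count table of 45777 genes by a rule that names them and sets no threshold on their values, and comprise 8 mevalonate enzymes, 11 squalene and sterol enzymes, 5 genes of SREBP control, 3 of sterol transfer inside the cell, 3 of export and turnover, and 3 of fatty acid synthesis and desaturation. Bulk mRNA was sequenced from 24 prefrontal cortex libraries of wild-type adult male mice, 6 in each of 4 groups and numbered within their group as the labels number the replicates. MS_EC12 mice had both maternal separation and EC-12, a preparation of heat-killed Enterococcus faecalis, MS mice had maternal separation alone, Control_EC12 mice had EC-12 alone, and Control mice had neither. EC-12 was supplied over 5 weeks. The study asked whether the supplement offsets what early separation from the mother does to social behaviour. Mouse strain is not given in the sources used here. Nothing in the labels ties a library to its own animal, so p-values measure the spread between libraries, which may be technical.

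Brain cholesterol is made in place, because the lipoproteins of blood do not cross the blood-brain barrier, and most of it sits in myelin. The mevalonate pathway builds isoprenoid units, a second set of enzymes joins them to squalene and reshapes lanosterol into cholesterol, and astrocytes hand cholesterol to neurons on lipoprotein particles loaded by ABC transporters. SREBP transcription factors switch these genes on: when sterols run low, the escort protein SCAP carries SREBP out of the endoplasmic reticulum, and when sterols are plentiful, INSIG proteins hold the SCAP-SREBP complex back. SREBPs bind sterol regulatory elements and some E-boxes, and act together with the factor NF-Y at CCAAT boxes.

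RefSeq promoters on build GRCm38.p6 were held for 25 of the 33 genes, and 4 are shown because the results turn on Insig1, Npc2 and Cyp51 and because Hmgcs1 alone carried the sterol element searched for. Each sequence is the 250 bases before the gene's start, 5′ to 3′ on the gene's own strand, with capitals marking CCAAT boxes (CCAAT, or ATTGG on the opposite strand), the E-box CACGTG and the sterol element TCACNCCAC. Insig1 lies at chr5:28071162-28071411 on the plus strand, Npc2 at chr12:84773113-84773362 on the minus strand, Cyp51 at chr5:4104698-4104947 on the minus strand and Hmgcs1 at chr13:119690101-119690350 on the plus strand.
Insig1: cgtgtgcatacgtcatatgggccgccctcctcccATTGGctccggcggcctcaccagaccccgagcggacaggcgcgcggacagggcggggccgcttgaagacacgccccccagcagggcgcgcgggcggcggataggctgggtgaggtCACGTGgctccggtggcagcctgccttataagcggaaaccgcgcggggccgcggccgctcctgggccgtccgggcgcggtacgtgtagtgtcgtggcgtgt
Npc2: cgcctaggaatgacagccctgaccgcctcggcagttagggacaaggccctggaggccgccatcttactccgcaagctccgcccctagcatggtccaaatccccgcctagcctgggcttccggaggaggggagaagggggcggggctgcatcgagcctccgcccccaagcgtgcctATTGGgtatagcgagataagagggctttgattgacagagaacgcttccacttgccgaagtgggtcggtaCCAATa
Cyp51: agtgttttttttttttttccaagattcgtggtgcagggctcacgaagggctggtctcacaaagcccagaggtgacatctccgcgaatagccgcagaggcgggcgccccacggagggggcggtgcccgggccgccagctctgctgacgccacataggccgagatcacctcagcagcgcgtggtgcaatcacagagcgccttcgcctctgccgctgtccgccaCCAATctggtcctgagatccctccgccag
Hmgcs1: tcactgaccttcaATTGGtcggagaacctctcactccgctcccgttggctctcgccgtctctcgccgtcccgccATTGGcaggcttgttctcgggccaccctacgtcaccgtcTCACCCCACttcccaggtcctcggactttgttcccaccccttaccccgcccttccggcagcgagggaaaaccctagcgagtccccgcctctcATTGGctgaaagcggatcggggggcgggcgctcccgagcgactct
Counting back from -1 at the base before the start, Insig1 carried 1 CCAAT box on the opposite strand at -216 to -212 and the E-box at -101 to -96. Npc2 carried CCAAT boxes at -75 to -71 and at -6 to -2, and Cyp51 carried 1 at -29 to -25. Hmgcs1 carried 3 CCAAT boxes and the sterol element TCACCCCAC at -137 to -129. Both strands were searched in the same 250-base window of every gene, and the 3 motifs share no base in the sequences shown. A CCAAT box stood in 22 of the 25 promoters (88%), against 37.49% of 27025 genes with such a window, and the E-box in 6 of 25 (24%), against 6.86%. The sterol element stood in 1 of 25 (4%), against 1.22%. A gene with several starts was counted once if any of its windows matched. The 27025 genes were not limited to genes expressed in these libraries, whereas all 33 genes were expressed, so the 2 sets differ in that too. Only 1 form of the sterol element was searched, so a promoter without a match may still hold another form. These are matches of letters in a window and show no binding.

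All 33 genes passed the filter on low counts, and the lowest count of any of them in any library was 329. On the length-corrected scale, Scd2, a stearoyl-CoA desaturase of brain, was highest with a mean deposited TPM (a level corrected for transcript length and library size) of 621 over all libraries. Cyp46a1, the neuronal hydroxylase that turns cholesterol into an oxysterol able to leave the brain, followed at 216 TPM. Hmgcs1, an HMG-CoA synthase early in the mevalonate pathway, stood at 173 TPM and the transcription factor Srebf2 at 116 TPM. At the low end were Lss, the lanosterol synthase, with 13.2 TPM, Hsd17b7, a sterol ketone reductase, with 10.9 TPM, and Abca1, the transporter that loads lipoproteins, with 8.31 TPM. Scd1 and Scd2 are close paralogs between which reads can be split, and Fdft1, Npc1, Srebf1 and Tm7sf2 overlap another protein-coding gene. The strand setting of the counting is not given in the sources used here, so reads of overlapping genes may not be separated.

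**Figure D1:**
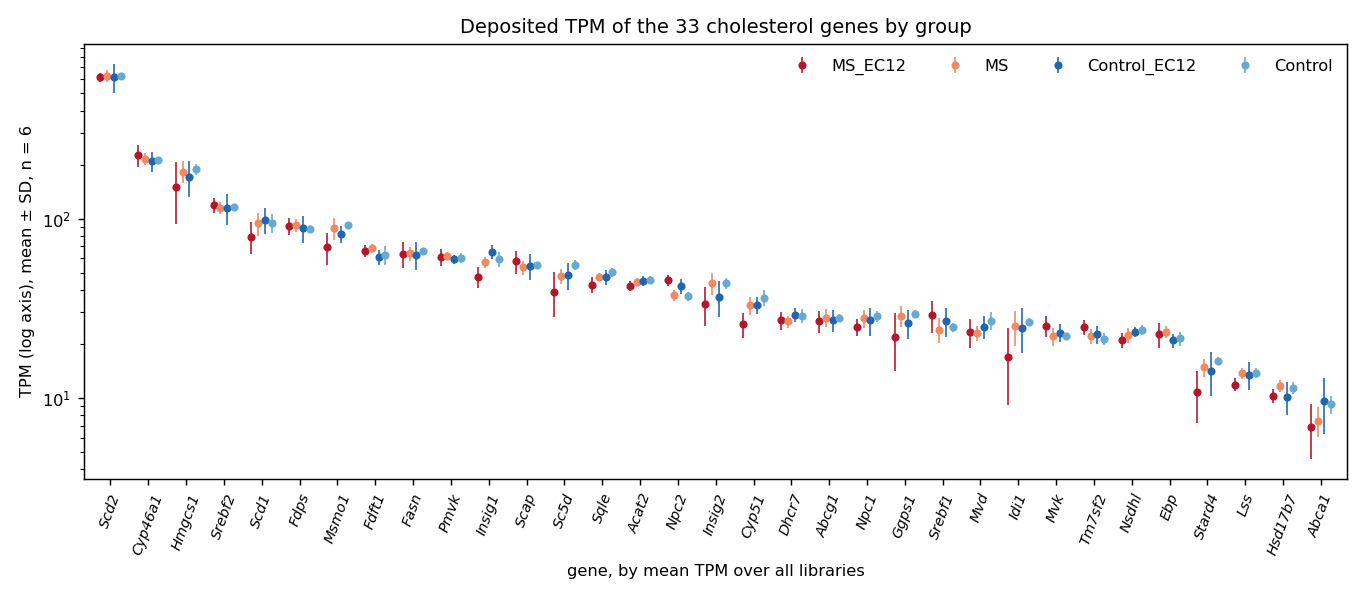
Deposited TPM (log axis, mean ± SD, n = 6 libraries) of the 33 genes in the 4 groups, ordered by mean over all libraries. Scd2 at 621 TPM and Abca1 at 8.31 TPM mark the ends of the range, and the 4 groups of most genes lie close together beside that range.

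Library totals ran between 26250197 and 39252382 counts. The libraries differed in how their counts related to GC content. For each library the GC slope is the change in log2 CPM (counts scaled to library size, each gene centred over libraries) per 10 percentage points of transcript GC content, so a slope above 0 means that GC-rich transcripts were counted more. It averaged 0.222 ± 0.325 in MS_EC12, -0.1 ± 0.18 in MS, -0.00487 ± 0.234 in Control_EC12 and -0.117 ± 0.0249 in Control (SD, n = 6 each). Slopes were above 0 in MS_EC12 libraries 3, 4, 5 and 6, in MS library 3 and in Control_EC12 libraries 3 and 4, and below 0 in the other 17 libraries, all 6 Control libraries included. The exact permutation test (two-sided) gave p = 0.039 for MS_EC12 against MS and p = 0.0606 for MS_EC12 against Control, or 0.152 each when adjusted over the 5 group comparisons. Every comparison with MS_EC12 was therefore also fitted on the 17 libraries of slope below 0, which left 2 MS_EC12, 5 MS, 4 Control_EC12 and 6 Control libraries. Markers of neurons, oligodendrocytes and astrocytes were present in every group, with summed neuronal levels of 9330 to 10100 CPM in MS_EC12 and 9190 to 10300 CPM in Control. In such bulk tissue, fewer cells of a type and less RNA per cell cannot be told apart.

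With separation alone or EC-12 alone, none of the 33 genes passed the test, which does not show that none changed. In MS against Control 0 of 33 passed edgeR's quasi-likelihood test at an adjusted p under 0.05, against 0.0326% of all 18380 genes tested, and 0 of 33 had an unadjusted p under 0.05, against 3.6% of all genes. DESeq2 also called 0 of 33. The median log2 fold change lay between -0.05 and 0.00 in each of the 6 role groups. The most negative values were those of Abca1, with a log2 fold change of -0.29 ± 0.19 (SE), and Mvd, the mevalonate decarboxylase, with -0.23 ± 0.13. In Control_EC12 against Control, again 0 of 33 passed, against 0.0218% of all genes, and DESeq2 called 0. An unadjusted p under 0.05 was reached by 2 of 33, against 8.93% of all genes: Npc2 (log2 fold change 0.23 ± 0.077) and Insig1 (0.18 ± 0.068), both with all 6 Control_EC12 libraries above the Control mean. With the GC slope of each library as a covariate, Insig1 did pass in that comparison (0.22, adjusted p = 0.0423, edgeR). In the 17 libraries the smallest adjusted p among the 33 was 0.0878 in MS against Control (Mvd) and 0.126 in Control_EC12 against Control (Insig1).

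**Figure D2:**
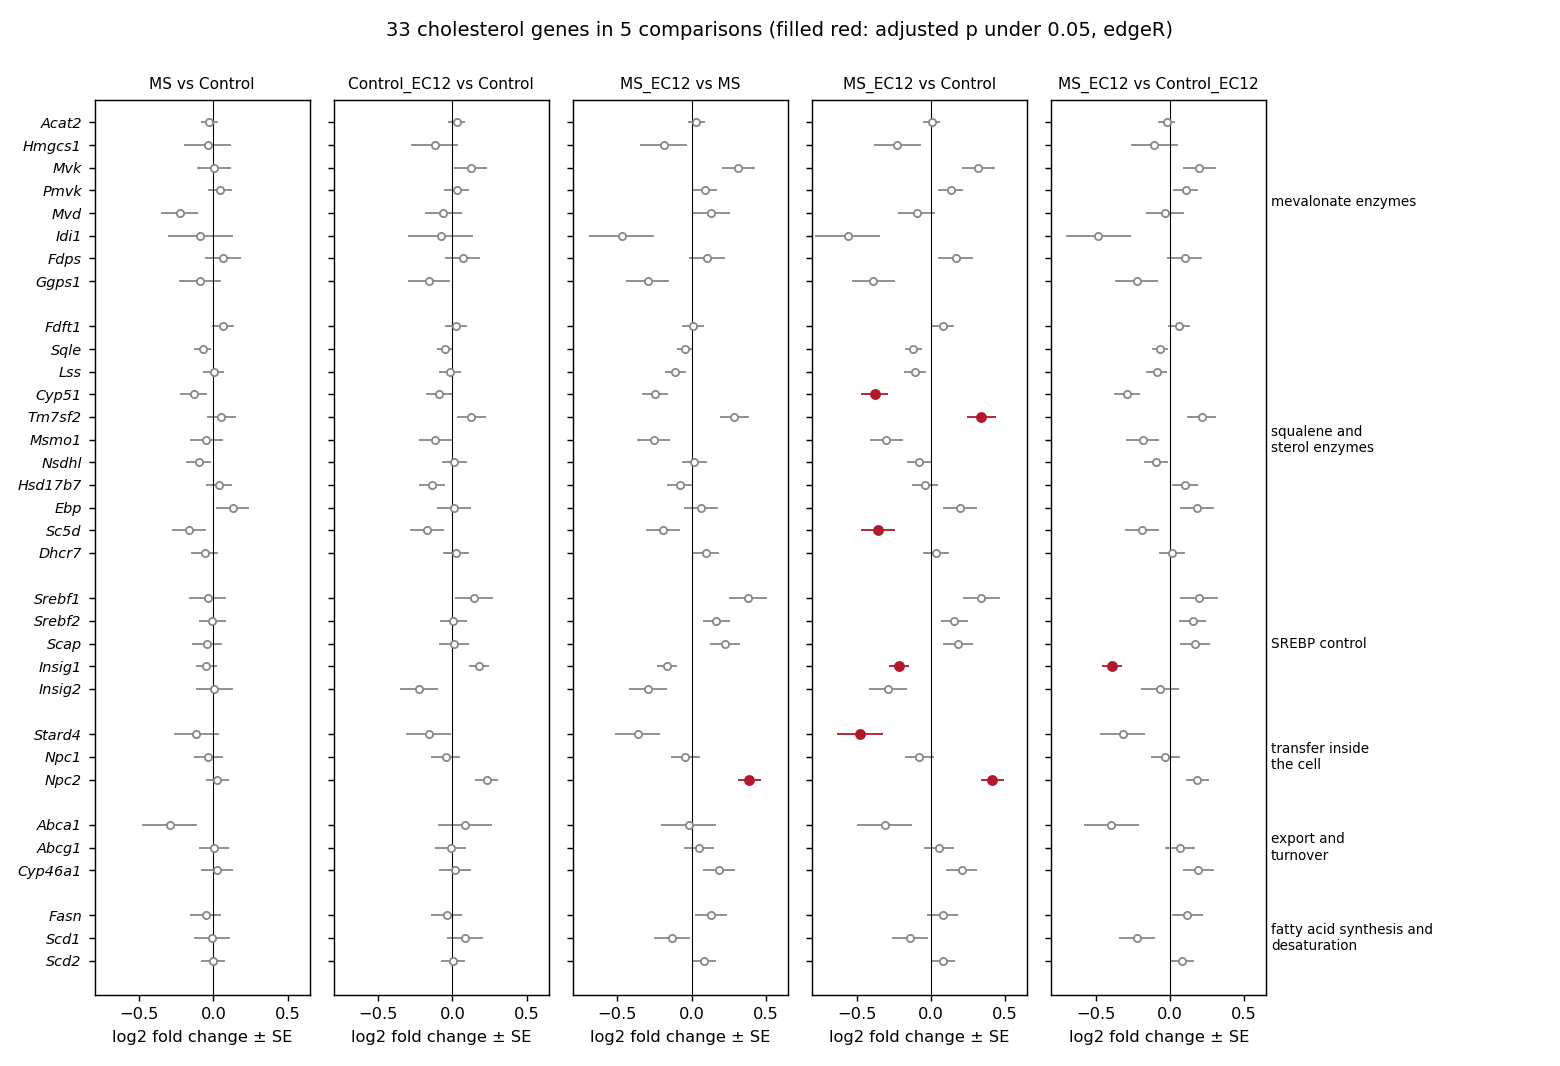
Log2 fold change ± SE of the 33 genes, by role, in the 5 comparisons between groups, with genes of adjusted p under 0.05 in edgeR filled red. No gene is red in MS against Control or in Control_EC12 against Control, and 6 are red in MS_EC12 against Control.

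When separated mice that had EC-12 were set against untouched mice, 6 cholesterol genes differed: Npc2 and Tm7sf2 rose, and Cyp51, Sc5d, Stard4 and Insig1 fell in MS_EC12 relative to Control. These 6 of 33 stand against 14.1% of all genes tested, or 2 higher against 7.31% and 4 lower against 6.8%, so the share is near the background. The median log2 fold change over the 33 was -0.04, against 0.01 over all genes. By role, 0 of 8 mevalonate enzymes, 1 higher and 2 lower of 11 squalene and sterol enzymes, 1 lower of 5 SREBP control genes, 1 higher and 1 lower of 3 transfer genes, 0 of 3 export and turnover genes and 0 of 3 fatty acid genes passed. Median log2 fold changes were -0.04 for the mevalonate enzymes, -0.08 for the squalene and sterol enzymes, 0.16 for SREBP control, -0.08 for transfer, 0.05 for export and turnover and 0.08 for the fatty acid genes. Each of these 6 calls was lost in the 17 libraries of GC slope below 0, and the count of members called was 0 without Control library 5 or MS_EC12 library 6 and 13 without MS_EC12 library 1 or 2. It was 1 without Control library 1 or MS_EC12 library 3 or 4, 2 without Control library 2, 3, 4 or 6 or MS_EC12 library 5, 3 without MS library 2, 4 or 5, and 10 without MS library 3 or Control_EC12 library 3. The calls over all genes swung as well, between 9 without Control library 5 and 6544 without MS_EC12 library 1, beside 2594 as reported.

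Among the mevalonate enzymes, no member passed edgeR's test in any comparison of the main fit. Mvk, the mevalonate kinase, ran between 15.71 and 23.75 CPM in MS_EC12 (median 19.91), between 14.36 and 19.66 CPM in MS (15.25), between 13.99 and 22.49 CPM in Control_EC12 (16.41) and between 15.46 and 16.13 CPM in Control (15.87). The 4 MS_EC12 libraries of GC slope above 0 were the 4 high ones, and the other 2, at 15.71 and 16.39 CPM, lay beside the Control libraries. MS_EC12 against Control gave a log2 fold change of 0.32 ± 0.11 with an adjusted p of 0.0535 by edgeR's quasi-likelihood test, and 0.02 with an adjusted p of 0.938 in the 17 libraries. It did pass with DESeq2 (0.34, adjusted p = 0.0316) and with RLE scaling in edgeR (0.33, adjusted p = 0.0496). Idi1, the isopentenyl diphosphate isomerase, averaged 21.5 ± 9.35 CPM in MS_EC12 and 31.7 ± 0.789 CPM in Control (SD, n = 6 each), with a log2 fold change of -0.56 ± 0.22 that did not pass (adjusted p = 0.0718, edgeR). Ggps1, which makes the geranylgeranyl diphosphate used to anchor proteins in membranes, averaged 46.8 ± 13.2 CPM in MS_EC12 and 61.1 ± 2.38 CPM in Control, with -0.39 ± 0.14 (adjusted p = 0.0598, edgeR). DESeq2 called both lower, with adjusted p-values of 0.0449 for Idi1 and 0.0403 for Ggps1. It called 23.5% of all genes in that comparison. Without the libraries of GC slope above 0, Idi1 and Ggps1 each stood at 0.03 on the log2 scale. Acat2, Hmgcs1, Pmvk, Mvd and Fdps had log2 fold changes between -0.23 and 0.17 in MS_EC12 against Control, none of which passed in the main fit. In the 17 libraries edgeR called Hmgcs1 higher and Mvd lower, against 1.01% of all genes. Mvd was also called lower with the GC offset described below, against 13.7% of all genes. With replicate number as a block, Mvk, Idi1 and Ggps1 were called, against 32.3% of all genes.

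The sterol end of the pathway held 3 of the 6 calls. Cyp51, the lanosterol demethylase, ran between 38.03 and 58.39 CPM in MS_EC12 (median 51.83), between 49.67 and 65.61 CPM in MS (60.39), between 51.57 and 67.52 CPM in Control_EC12 (61.22) and between 59.19 and 73.57 CPM in Control (63.95). All MS_EC12 libraries were below all Control libraries, as 2.62% of all genes were, and the 2 MS_EC12 libraries of GC slope below 0, at 52.23 and 58.39 CPM, were below them too. The log2 fold change against Control was -0.38 ± 0.09 with an adjusted p of 0.0246 by edgeR's quasi-likelihood test. Restricted to the 17 libraries, it was -0.24 with an adjusted p of 0.172. The call was also lost without Control library 1 or 5 or MS_EC12 library 3, 4 or 6, with adjusted p-values up to 0.0792.

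Tm7sf2, a sterol reductase that acts after Cyp51, ran between 14.19 and 20.7 CPM in MS_EC12 (median 16.05), between 11.91 and 15.65 CPM in MS (13.21), between 12.16 and 17.07 CPM in Control_EC12 (14.09) and between 11.77 and 13.85 CPM in Control (13.26). The MS_EC12 libraries were all above the Control libraries, as 2.57% of all genes were, and the 3 libraries of MS and Control_EC12 with GC slope above 0 were the highest of their groups. MS_EC12 against Control gave 0.34 ± 0.097 on the log2 scale (adjusted p = 0.0354, edgeR), and 0.17 with an adjusted p of 0.44 in the 17 libraries. The call was lost without any single Control library and without MS_EC12 library 3, 4, 5 or 6. Tm7sf2 overlaps Vps51, so its count may hold reads of that gene.

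Sc5d, the desaturase that makes one of the last precursors of cholesterol, ran between 49.44 and 83.81 CPM in MS_EC12 (median 61.58), between 60.33 and 82.03 CPM in MS (76.19), between 58.58 and 84.08 CPM in Control_EC12 (78.85) and between 81.67 and 87.01 CPM in Control (83.97). The MS_EC12 libraries fell into 4 low ones, all of GC slope above 0, and 2 at 83.15 and 83.81 CPM, inside the Control range. The single low MS library, at 60.33 CPM, and the 2 low Control_EC12 libraries, at 58.58 and 65.09 CPM, were likewise those of slope above 0. The log2 fold change against Control was -0.36 ± 0.11 (adjusted p = 0.0435, edgeR) in all libraries and -0.01 (adjusted p = 0.965) in the 17. The call was also lost without any single Control library, without MS library 1, 2, 4 or 5 and without MS_EC12 library 3, 4, 5 or 6.

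The other 8 sterol enzymes, Fdft1, Sqle, Lss, Msmo1, Nsdhl, Hsd17b7, Ebp and Dhcr7, had log2 fold changes between -0.30 and 0.20, and none passed edgeR's test in the main fit. With replicate number as a block, Msmo1 was called in MS_EC12 against Control, against 32.3% of all genes. DESeq2 called Msmo1 lower in that comparison (-0.29, adjusted p = 0.0483), against 23.5% of all genes called.

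**Figure D3:**
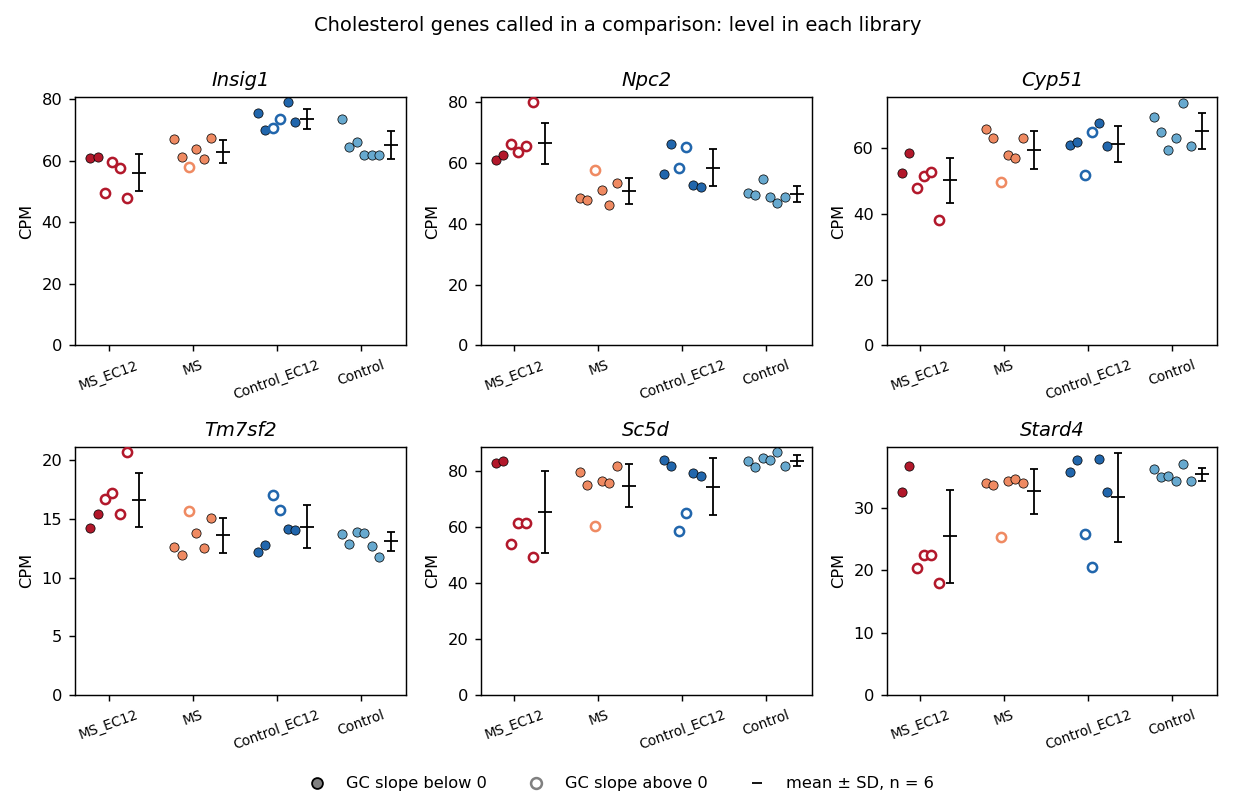
CPM in each library for the 6 genes called in a comparison, with the mean ± SD of each group beside its 6 points. Open points are the 7 libraries of GC slope above 0: they are the low points of Sc5d and Stard4 in MS_EC12, MS and Control_EC12. Insig1 in MS_EC12 lies below Control_EC12 in open and filled points alike, and within MS_EC12 its filled points are the highest.

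In SREBP control the gene of smallest p was Insig1, which encodes an endoplasmic reticulum protein that restrains SREBP and is itself a target of SREBP. Insig1 ran between 48.07 and 61.41 CPM in MS_EC12 (median 58.7), between 57.93 and 67.28 CPM in MS (62.55), between 70.16 and 79.16 CPM in Control_EC12 (73.12) and between 61.89 and 73.69 CPM in Control (63.31). Every MS_EC12 library was below every Control_EC12 library, a lack of overlap that 0.18% of all genes showed in that direction, and every MS_EC12 library was also below every Control library, which 2.62% of all genes showed. Against Control_EC12 the log2 fold change was -0.39 ± 0.069 with an adjusted p of 0.0104 by edgeR's quasi-likelihood test, the only one of the 33 genes called in that comparison, where 0.261% of all genes were called. It passed in each of the 24 fits that left out 1 library, with log2 fold changes between -0.42 and -0.34 and adjusted p-values between 0.00493 and 0.0437. In the 17 libraries edgeR gave -0.28 with an adjusted p of 0.112. The 2 MS_EC12 libraries there, at 60.84 and 61.41 CPM, were both below the 4 Control_EC12 libraries at 70.16 to 79.16 CPM. They were also the highest of their group, the MS_EC12 libraries of GC slope above 0 being at 48.07 to 59.77 CPM. MS library 3, also of slope above 0, was the lowest of its group at 57.93 CPM. Control_EC12 libraries 3 and 4, at 70.59 and 73.61 CPM, lay inside their group's range.

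The log2 fold changes of Insig1 with EC-12 had opposite signs in the 2 rearing backgrounds, and neither passed in the main fit. In separated mice all 6 MS_EC12 libraries were below the MS mean, with a log2 fold change of -0.17 ± 0.068 (adjusted p = 0.116, edgeR), and in non-separated mice all 6 Control_EC12 libraries were above the Control mean, with 0.18 ± 0.068 (adjusted p = 0.438). In the 17 libraries these values were -0.07 (adjusted p = 0.817) in separated and 0.19 (adjusted p = 0.126) in non-separated mice. The test of the difference between these 2 effects, the interaction of rearing and supplement, gave -0.34 ± 0.097 on the log2 scale with an unadjusted p of 0.0016 and an adjusted p of 0.55 by edgeR's quasi-likelihood test, so it did not pass. In the 17 libraries it was -0.26 (adjusted p = 0.569). No other of the 33 genes passed the interaction test either, against 0.0109% of all genes. At an unadjusted p under 0.05 only Insig1 of the 33 was reached, against 4.8% of all genes, and DESeq2 called 0. Insig1 also fell in MS_EC12 relative to Control, with a log2 fold change of -0.21 ± 0.068 (adjusted p = 0.0444, edgeR), and in the 17 libraries the value was -0.09 (adjusted p = 0.614). That call was lost without any single Control library, without MS library 2, 4, 5 or 6, without Control_EC12 library 6 and without MS_EC12 library 3, 4, 5 or 6.

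The other SREBP control genes did not pass edgeR's test in any comparison of the main fit. With replicate number as a block, Srebf1, Scap and Insig2 were called in MS_EC12 against MS, where 20.7% of all genes were. Insig2 was also called in MS_EC12 against Control, where 32.3% of all genes were. Srebf1 averaged 56.2 ± 13.2 CPM in MS_EC12, 43.2 ± 7.21 CPM in MS and 44.4 ± 2.13 CPM in Control (SD, n = 6 each), with log2 fold changes of 0.38 ± 0.13 against MS (adjusted p = 0.0866, edgeR) and 0.34 ± 0.13 against Control (adjusted p = 0.0624). DESeq2 called Srebf1 higher in both (adjusted p = 0.0473 against MS and 0.0401 against Control), where it called 9.5% and 23.5% of all genes. In the 17 libraries Srebf1 stood at 0.07 against MS and -0.06 against Control. Srebf2, the form that mainly drives sterol genes, averaged 262 ± 33 CPM in MS_EC12 and 234 ± 12.6 CPM in Control, with 0.16 ± 0.09. Scap averaged 111 ± 19.4 CPM in MS_EC12 and 97.7 ± 5.88 CPM in Control, with 0.18 ± 0.10. Insig2 averaged 39.9 ± 8.32 CPM in MS_EC12 and 48.7 ± 2.26 CPM in Control, with -0.29 ± 0.13. None of these 3 values passed in the main fit, and in the 17 libraries they were -0.01 for Srebf2, -0.13 for Scap and 0.01 for Insig2.

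**Figure D4:**
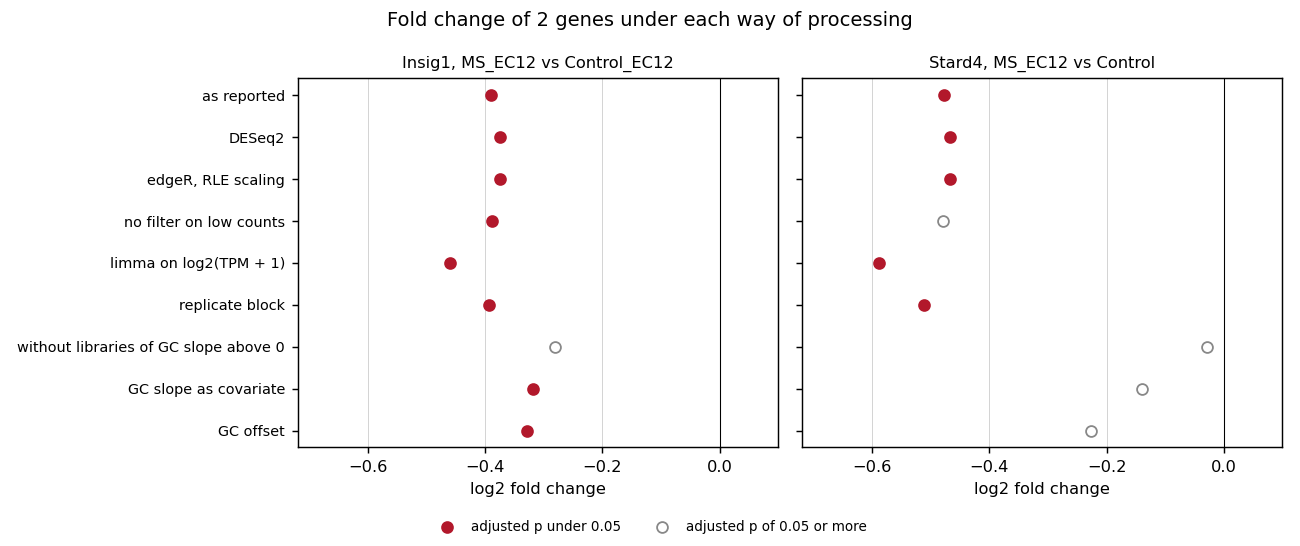
Log2 fold change of Insig1 in MS_EC12 against Control_EC12 and of Stard4 in MS_EC12 against Control under each way of processing, filled where the adjusted p was under 0.05. Insig1 stays between -0.46 and -0.28, while Stard4 lies at -0.48 as reported and at -0.03 without the libraries of GC slope above 0.

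Of the genes that move cholesterol inside the cell, Npc2 rose and Stard4 fell. Npc2, a small lysosomal protein that hands cholesterol to NPC1, ran between 61.11 and 80.02 CPM in MS_EC12 (median 64.5), between 46.09 and 57.9 CPM in MS (49.85), between 52.05 and 66.18 CPM in Control_EC12 (57.43) and between 47.03 and 54.65 CPM in Control (49.28). The MS_EC12 libraries were all above both the MS and the Control libraries, which 0.593% and 2.57% of all genes showed in that direction, and they overlapped with Control_EC12. Npc2 was the only one of the 33 called against MS, where 0.163% of all genes were called, and 5 higher and 7 lower of the 33 had an unadjusted p under 0.05 there, against 31.8% of all genes. Its value against MS was a log2 fold change of 0.39 ± 0.076 (adjusted p = 0.036, edgeR). Against Control, with the same MS_EC12 libraries, it was 0.41 ± 0.077 (adjusted p = 0.0158).

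In the 17 libraries Npc2 stood at 0.32 against MS (adjusted p = 0.152, edgeR) and at 0.31 against Control (adjusted p = 0.0575), with 61.11 and 62.68 CPM in the 2 MS_EC12 libraries. The call against Control was lost without MS_EC12 library 6 (0.36, adjusted p = 0.053) and without Control library 5 (0.40, adjusted p = 0.0501). The call against MS was lost without any single Control library, without MS library 1, 2, 4, 5 or 6 and without MS_EC12 library 3, 4 or 6, with adjusted p-values up to 0.151 and log2 fold changes no lower than 0.33. MS_EC12 library 6, the highest in Npc2, was also the highest of the 24 in several summed marker lists. These were the microglial (489 CPM), blood (598 CPM), choroid plexus (676 CPM), oligodendrocyte (6830 CPM) and striatum (1440 CPM) lists. That library ranked 21 of 24 for neurons, 22 for oligodendrocyte precursors and 23 for astrocytes, and had the highest GC slope, 0.611. MS_EC12 library 1, the lowest of its group in Npc2, ranked 2 for blood (504 CPM). It ranked 20 for microglia and 24 for oligodendrocytes and striatum. The 7 microglial markers summed to 361 to 489 CPM in MS_EC12 and 329 to 403 CPM in Control. In that comparison 6 of the 7 had positive log2 fold changes and 1 a negative one. The 5 blood markers summed to 229 to 598 CPM in MS_EC12 and 205 to 289 CPM in Control. Called higher were 2 of 7 microglial and 4 of 5 blood markers, against 7.31% of all genes. No gene of these lists was at 0 in all libraries, and their part in the Npc2 result was not tested.

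Stard4, a carrier of cholesterol between membranes, ran between 17.9 and 36.66 CPM in MS_EC12 (median 22.41), between 25.3 and 34.69 CPM in MS (34), between 20.44 and 37.88 CPM in Control_EC12 (34.08) and between 34.31 and 37.07 CPM in Control (35.05). The 4 MS_EC12 libraries of GC slope above 0 were at 17.9 to 22.42 CPM and the other 2 at 32.6 and 36.66 CPM, so the groups overlapped. MS library 3, at 25.3 CPM, and Control_EC12 libraries 3 and 4, at 25.8 and 20.44 CPM, were the low libraries of their groups. The log2 fold change in MS_EC12 against Control was -0.48 ± 0.15 (adjusted p = 0.0436, edgeR) in all libraries and -0.03 (adjusted p = 0.89) in the 17. The call was also lost without any single Control library, without MS library 1, 2, 4, 5 or 6, without Control_EC12 library 6 and without MS_EC12 library 3, 4, 5 or 6. Npc1, the lysosomal membrane partner of NPC2, averaged 58.2 ± 7.93 CPM in MS_EC12 and 61.3 ± 4.16 CPM in Control and did not pass in any comparison, with -0.34 (adjusted p = 0.072) against Control in the 17 libraries.

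No export or turnover gene passed in the main fit. Abca1 ran between 22.3 and 46.79 CPM in MS_EC12 (median 29.98), between 23.69 and 38.68 CPM in MS (31.81), between 22.9 and 54.59 CPM in Control_EC12 (44.91) and between 35.01 and 44.86 CPM in Control (38.47). All groups overlapped, and the log2 fold change was -0.31 ± 0.19 in MS_EC12 against Control (adjusted p = 0.214, edgeR) and -0.40 ± 0.19 against Control_EC12 (adjusted p = 0.308). Against Control in the 17 libraries it was 0.04 (adjusted p = 0.936). Abcg1, which passes cholesterol to larger lipoproteins, had 0.05 against Control, and Cyp46a1 had 0.21 ± 0.11, beside -0.24 and -0.12 for the same genes in the 17 libraries. Scd1, the desaturase that makes monounsaturated fatty acids, ran between 136.6 and 214.1 CPM in MS_EC12 (median 171.1), between 139.4 and 212 CPM in MS (199.4), between 163.5 and 225.9 CPM in Control_EC12 (200.2) and between 146.9 and 209.4 CPM in Control (193.8). Its groups overlapped too, with -0.14 ± 0.12 in MS_EC12 against Control (adjusted p = 0.394, edgeR) and -0.43 (adjusted p = 0.122) in the 17 libraries. Fasn, the fatty acid synthase, and Scd2 each had 0.08.

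Direction in MS_EC12 against Control went with transcript GC content among the 33 genes. With the genes split at their median GC content of 49.5%, 16 of the 17 at or above it had positive log2 fold changes in MS_EC12 against Control, the exception being Mvd, and 16 of the 16 below it had negative ones. Across these 33 genes, which share the same libraries and are not independent replicates, Pearson's r between GC content and log2 fold change was 0.75 and Spearman's rho 0.78, beside 0.55 and 0.61 over 17030 genes with a GC value. In the 17 libraries r among the 33 was -0.27 and rho -0.31. Those libraries were chosen by GC slope, so a weaker positive link with GC content was built into the choice. With GC content fitted as an offset in each library, a fit added after the data had been seen, r was 0.01. The offset takes out each library's GC trend, so a small r follows from the fit itself. With it, 4 members were called in MS_EC12 against Control, against 13.7% of all genes in that fit. Npc2 (0.34, adjusted p = 0.0101, edgeR) and Tm7sf2 (0.28, adjusted p = 0.0362) were higher. Cyp51 (-0.21, adjusted p = 0.0309) and Mvd (-0.31, adjusted p = 0.0226) were lower. Sc5d was then at -0.05 and Stard4 at -0.23, and neither passed.

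**Figure D5:**
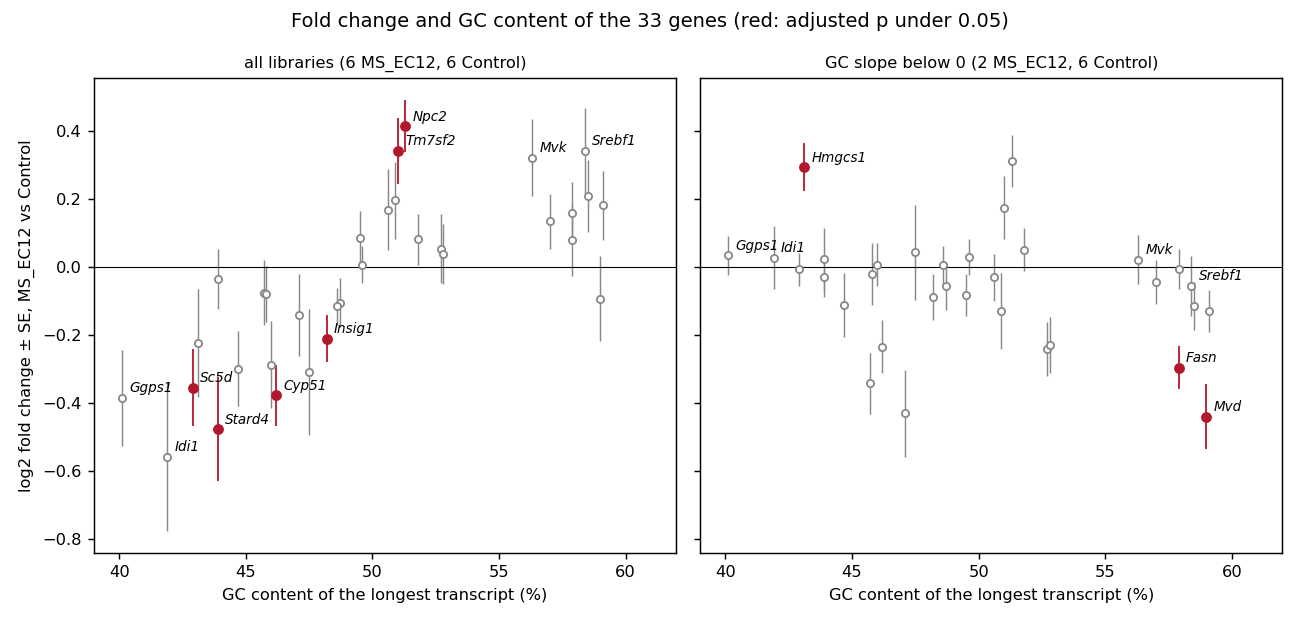
Log2 fold change ± SE in MS_EC12 against Control against GC content of the longest transcript for the 33 genes, in all libraries at left and in the libraries of GC slope below 0 at right. Values climb with GC content at left (r = 0.75) and do not at right (r = -0.27), where MS_EC12 has 2 libraries.

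Fitted on the 17 libraries, 3 other members were called in MS_EC12 against Control, against 1.01% of all genes in that fit: Hmgcs1 was higher, with 0.29 (adjusted p = 0.0497, edgeR) where all libraries gave -0.23, and Mvd and Fasn were lower, with -0.44 (adjusted p = 0.0371) and -0.30 (adjusted p = 0.0318), where all libraries gave -0.09 and 0.08. These rest on 2 MS_EC12 libraries.

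A wider list of 52 further genes of cholesterol and lipid metabolism was set beside them. It held 0 calls in every comparison but MS_EC12 against Control, where 6 rose and 4 fell, or 19.2% against 14.1% of all genes, with a median log2 fold change of 0.03. The genes that rose included Apod, a lipid-binding apolipoprotein (0.49 ± 0.12), Nr1h3, a liver X receptor that senses oxysterols (0.52 ± 0.17), Scarb1, a receptor for high-density lipoprotein (0.28 ± 0.096), and Thrsp, a promoter of fatty acid synthesis known from liver (0.53 ± 0.12). Those that fell included Vldlr, a receptor for very-low-density lipoprotein and reelin (-0.66 ± 0.20), Elovl6, a fatty acid elongase (-0.59 ± 0.18), and Acaca, the acetyl-CoA carboxylase (-0.33 ± 0.11). Thrsp was the only one of the 52 called in the 17 libraries. Cell markers were read in the same comparison, where 7.31% of all genes were called higher and 6.8% lower. The 10 oligodendrocyte markers had a median log2 fold change of 0.20, with 6 positive and 4 negative. Of the 10, 0 were called higher and 2 lower, Ermn (-0.77) among them. Of 8 astrocyte markers 2 were called higher, Aldh1l1 (0.38) and Aldoc (0.24), and 2 lower, Aqp4 (-0.71) and Gja1 (-0.31). The oligodendrocyte list summed to 4170 to 6830 CPM in MS_EC12 and 4790 to 5670 CPM in Control, the astrocyte list to 3750 to 4770 CPM in MS_EC12 and 4460 to 4980 CPM in Control, and no gene of either was at 0 in all libraries. The part of these cells in the results was not tested.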

How the data were processed

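Total RNA was extracted with ISOGEN II and made into TruSeq stranded mRNA libraries, per the labels' protocols. Build mm10 is listed in the submitters' processing notes, with StringTie 2.1.3b, HISAT2 2.1.0, DESeq2, Trimmomatic 0.38 and FastQC 0.11.7. The deposited table gives raw read counts per gene, and TPM and FPKM values that the authors normalized for length and depth; FPKM was not used in any result. Counts were tested with edgeR 4.0.16 (R 4.3.3; quasi-likelihood F test, TMM scaling, filterByExpr with a minimum count of 10 and total of 15, all 24 libraries in 1 fit, p-values adjusted by Benjamini-Hochberg over 18380 genes, threshold 0.05). CPM are TMM-scaled, and log2 fold changes carry standard errors. Library GC slopes used GC content of each gene's longest GENCODE transcript, known for 17030 of the genes tested. Alternatives were DESeq2 1.42.0, RLE scaling, no filter, limma 3.58.1 on log2(TPM + 1), a replicate block, GC slope as covariate, the libraries of GC slope below 0, each library left out, and a GC offset, chosen after seeing the data. No 2 libraries of the same group agreed within sampling noise (lowest chi-square per gene 4.23), and pairs across groups were not compared in this way. Fits were checked on simulated counts drawn without a GC trend per library, so that check does not cover the spread of GC slope. Genes given in detail were, for each role, the members called in any comparison, up to 3 by smallest p, or otherwise the member of smallest p. The 33 genes and all lists were chosen with earlier results of these data known.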

Additional observations from a re-analysis of the deposited data

Results flagged for a closer look

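Within each group of 6 libraries, the highest or lowest library of 15 gene and group pairs, out of 132 examined over the 33 genes, stood further from the others than Dixon's 95% limit allows, and chance alone marks about 1 in 20 groups. MS library 3 gave 6 of them, the genes Mvk (19.66 CPM) and Scap (114.2 CPM) high and Idi1 (17.28 CPM), Ggps1 (45.1 CPM), Sc5d (60.33 CPM) and Stard4 (25.3 CPM) low. Control_EC12 library 3 was low in Idi1 (15.29 CPM) and Ggps1 (36.41 CPM) and high in Scap (124.4 CPM) and Abcg1 (82.66 CPM), and Control_EC12 library 4 was low in Lss (28.04 CPM). These 3 libraries have a GC slope above 0, and what part that plays was not tested. MS_EC12 library 6 was high in Npc2 (80.02 CPM). Control library 3 was high in Srebf2 (259.7 CPM) and low in Scd1 (146.9 CPM), and Control library 1 was high in Insig1 (73.69 CPM).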

How the results depend on the processing

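No member called as reported changed direction under any alternative, while 18 of the 27 members not called in MS_EC12 against Control, Fasn, Hmgcs1, Idi1, Ggps1, Srebf1 and Abca1 among them, had the opposite sign in the 17 libraries of GC slope below 0. The limits are the spread of GC slope over libraries, 2 MS_EC12 libraries once slopes above 0 are left out, and small fold changes: a difference that missed the threshold is not shown to be absent. The 17-library fit has fewer samples; beyond that, the cause of each change below was not tested.

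Counts below run in the order MS against Control, Control_EC12 against Control, MS_EC12 against MS, MS_EC12 against Control, MS_EC12 against Control_EC12 and the interaction, where each moved by over 1.5 times. All genes called numbered 6, 4, 30, 2594, 48 and 2 as reported and 22, 71, 1747, 4325, 172 and 19 with DESeq2. Without the libraries of GC slope above 0 they were 83, 87, 14, 193 and 31 in the first 5, and with the slope as covariate 62, 138, 3 and 40 in the first 4 and 7 for the interaction. With the GC offset they were 19, 88 and 4 in the first 3. Without a filter on low counts they were 1, 339 and 1 in MS_EC12 against MS, MS_EC12 against Control and the interaction. With limma on log2(TPM + 1) they were 2, 161, 4046, 16 and 0 from Control_EC12 against Control on, and in MS_EC12 against Control 613 were higher and 3433 lower, against 1344 and 1250 as reported.

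Of the 33 members, 1 was called in MS_EC12 against MS and 6 in MS_EC12 against Control as reported. DESeq2 called 3 and 11 (adding Srebf1 and Tm7sf2 in the first, and Ggps1, Idi1, Msmo1, Mvk and Srebf1 in the second), no filter 0 and 2, the 17 libraries 0 and 3, the slope as covariate 0 and 0, and the GC offset 0 in MS_EC12 against MS. Over all genes, DESeq2 called 9.5% and 23.5% in these comparisons. Limma on TPM called 10 in MS_EC12 against Control, 1 higher and 9 lower. Insig1 was called by each alternative in MS_EC12 against Control_EC12 except in the 17 libraries, where 0 members were, and with the slope as covariate it was also called in Control_EC12 against Control (0.22, adjusted p = 0.0423, edgeR), the 1 member called there.

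Leaving out 1 library at a time gave 2 to 9, 4 to 24, 0 to 5037, 9 to 6544, 14 to 186 and 1 to 4 genes called, and 0 to 0, 0 to 0, 0 to 11, 0 to 13, 1 to 1 and 0 to 0 members. In MS_EC12 against MS, 11 members were called without MS_EC12 library 2 and 8 without MS library 3 or MS_EC12 library 1. The calls over all genes were most numerous there, at 5037, without MS_EC12 library 1. The difference in GC slope ran from -0.0562 to 0.0375, 0.0253 to 0.144, 0.244 to 0.399, 0.261 to 0.416 and 0.149 to 0.314 in the 5 group comparisons.

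The labels give libraries of the same replicate number nothing in common but that number. After group means were removed, 13 of 36 same-number pairs correlated above 0.1, beside 35 of 180 pairs of different number. The median r was 0.0822 for same-number pairs and -0.0144 for the others. Of the 24 libraries, 5 correlated best with a library of their own number. What the number stands for was not tested. With replicate number as a block, genes called were 10, 33, 3809, 5939, 232 and 9, and members called 8 in MS_EC12 against MS and 11 in MS_EC12 against Control.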

Other observations

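The 33 genes varied less between Control libraries than between libraries of the other groups, as did all genes tested. The GC slope also spread least in Control, with an SD of 0.0249, against 0.18 to 0.325 in the other groups. What part the slope plays in this was not tested. The median coefficient of variation of the 33 between libraries was 16.6% in MS_EC12, 10.2% in MS, 13.8% in Control_EC12 and 5.11% in Control. Over all 18380 genes tested it was 18.7%, 13.9%, 18.6% and 8.79%. In MS_EC12, 31 of the 33 varied more than in Control, or 93.9%, against 81.6% of all genes. Idi1 varied by 43.4% in MS_EC12 and 2.49% in Control, and Mvk by 16.6% in MS_EC12 and 1.44% in Control. MS library 3 held the highest value of its group in 16 of the 33 genes and the lowest in 9, and MS_EC12 library 6 held the highest in 12 and the lowest in 12. The summed choroid plexus markers reached 676 CPM in MS_EC12 library 6 and 65.7 CPM in MS library 3, and 15 CPM at most in the other 22 libraries.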
